A study of Mus musculus with 2 samples.

Results

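The genes described here encode the enzymes of fatty acid oxidation and ketone body metabolism. The list holds 36 genes named for this purpose, with earlier results of these data known. A gene was read from the probe sets (the array's groups of probes for 1 transcript) that carry its symbol alone, and where there were several, from the brightest by its log2 signal averaged over the 2 arrays. Of the 36 genes, 35 had such a probe set, out of 18193 genes on the array, and Acsl1 is not analysed here. All 35 lay above the floor in both arrays, so no member was lost to, or selected by, the filter on dim signals. The floor is the 40th percentile of all probe sets other than controls, 17.0 for macrophages and 14.4 for osteoclasts.

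The study holds 2 Affymetrix arrays, 1 of macrophages and 1 of osteoclasts, each from C57/Black6 bone marrow of 8 week old mice. Marrow cells were first expanded for 3 days in M-CSF, the growth factor of the macrophage lineage, which both groups received throughout. The adherent progenitors then had 6 days of M-CSF alone (macrophage) or of M-CSF with RANKL, the cytokine that induces osteoclasts. The labels do not say how many animals were pooled or whether both cultures shared a donor. The comparison asks how expression differs between the cells with and without RANKL. Neither group was replicated, so no test or p-value is given and every statement below describes these arrays.

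Long-chain fatty acids are joined to coenzyme A by acyl-CoA synthetases, carried into mitochondria as carnitine esters and shortened in cycles of dehydrogenation, hydration, a second dehydrogenation and thiolysis. The electrons of the first step reach the respiratory chain through the electron transfer flavoprotein, while peroxisomes run a parallel pathway with oxidases. Ketone bodies, made mainly in liver, are burnt elsewhere after 3-hydroxybutyrate dehydrogenase and the transferase Oxct1 have turned them into acetoacetyl-CoA. Osteoclasts are known as cells rich in mitochondria.

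The osteoclast array was 1.35-fold dimmer, by a median of -0.43 on the log2 scale over 23708 probe sets above the floor in both arrays. Unless said otherwise, differences are log2 of osteoclast over macrophage relative to that shift, while signals are the deposited intensities. The only error to hand is how far probe sets of the same gene differ, an SD of 0.49 over 14641 probe sets of 5435 genes, which holds no variation between cultures or animals. Markers of the labelled cell types were read first: 10 of 10 osteoclast genes were at least 2-fold higher in osteoclasts (median 5.09), and 4 of 9 macrophage genes were at least 2-fold lower (median -0.91). Granulocyte markers were also higher, 8 of 11 measured genes by 2-fold or more with 2 lower, and their summed signal was 3473 in macrophages and 6156 in osteoclasts over 12 genes. Stromal and osteoblast genes had a median of 0.63 over 7 genes, of which 2 (Col3a1 and Dcn) were at least 2-fold higher and none 2-fold lower. Their summed signals were 9202 and 6079, most of it from Col1a1 (2078 and 1381) and Col1a2 (5744 and 2895). Adipocyte genes summed to 16.1 and 41.6 over 4 genes, of which 3 lay below the floor in both arrays, Adipoq included. Of 6 lymphocyte genes, 5 lay below both floors, and the sums were 98.6 and 50.8. No marker had a deposited value of exactly 0. Xist gave 1872 and 22.1, while the Y-linked genes Eif2s3y (0.571 and 321), Uty (14.7 and 72.7) and Kdm5d (6.14 and 63.5) went the other way. These genes thus differed between the arrays as female cells differ from male ones. A difference between the animals, sex included, cannot be told apart from that between the treatments. The part of these other cells and of the animals in the results below was not tested.

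As a group, the oxidation and ketone genes were higher in osteoclasts relative to the shift. Their median was 0.64, against 0.00 for all 13647 genes measured in at least 1 array, and 29 of 35 lay above the shift, compared with 48.2% of all measured genes. As deposited the median was 0.20, against -0.43 for all measured genes. On that scale 21 of 35 members lay above 0, as did 3189 of the 13647 measured genes. Bdh1 and Acad10, an acyl-CoA dehydrogenase, led the group, followed by Bdh2, the mitochondrial thiolase Acaa2 and Oxct1, while Cpt1a, the gate of mitochondrial entry, and the peroxisomal oxidase Acox3 went the other way. Without the 3 ketone body genes the median of the other 32 was 0.53. As deposited it was 0.099, with 18 of these 32 above 0. Because the list was chosen with earlier results known, the comparison with all genes is a description and no independent support.

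Counted by size, 8 members were at least 2-fold higher (Bdh1, Acad10, Bdh2, Acaa2, Oxct1, Etfdh, Eci2 and Acad11), where 7.11% of all measured genes were. Only Acox3 was at least 2-fold lower, against 6.99% of all measured genes. As deposited, 5 members were 2-fold higher (background 3.0%) and 2 were 2-fold lower, Acox3 and Cpt1a (background 17.5%). Genes at the signal of the middle 50% of the members were not generally higher, and the brightest and dimmest members lay outside that range. Among 4024 genes with a mean signal within the middle 50% of the members', 5.22% passed 2-fold upwards and 6.91% downwards, and the median was -0.042. Of the 35 members, 20 lay above the shift by more than the probe set SD, 2 below it by more, and 13 within it. The share of all measured genes past that SD was not counted. The middle 50% of the differences of all measured genes ran from -0.39 to 0.40, inside that SD of 0.49 on either side. For the 35 members it ran from 0.14 to 0.92.

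**Figure D1:**
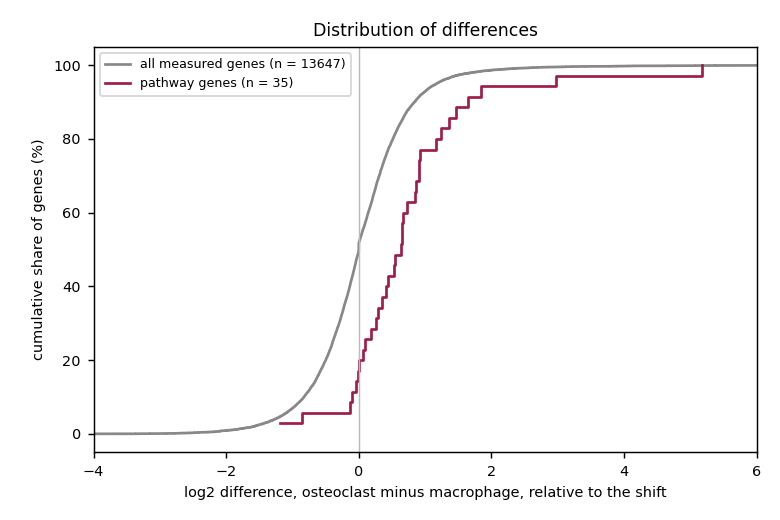
Cumulative share of genes (vertical axis, percent) by log2 difference, osteoclast minus macrophage relative to the shift (horizontal axis), for 13647 measured genes in grey and 35 fatty acid oxidation and ketone genes in red. The members' curve lies to the right of the grey one, with medians of 0.64 and 0.00; 29 members lie above the shift and, as deposited, 21 lie above 0. The axis leaves out the most extreme genes of the grey curve.

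By role, the 3 ketone body genes had the largest median difference, 1.84. Gene by gene, Acad10 lay above Bdh2 and Oxct1, and Acaa2 above Oxct1. Bdh1, the mitochondrial 3-hydroxybutyrate dehydrogenase that interconverts the main ketone bodies, gave 32.5 in macrophages and 872 in osteoclasts. That is a 26.8-fold higher deposited signal and a difference of 5.18, the 12th highest of 13647 measured genes. The macrophage signal was close to background: 95% of 80 probe sets for olfactory and vomeronasal receptors, which these cells are not known to use, lay under 28.2 there and under 25.7 in osteoclasts. A second Bdh1 probe set gave 1.31, below the floor, in macrophages and 141 in osteoclasts, the same direction. Bdh2, named as the cytosolic counterpart, gave 42.4 and 113, a difference of 1.84 from its only probe set.

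Oxct1, the transferase that commits acetoacetate to oxidation, was already well above the floor in macrophages, at 1703, and reached 3502 in osteoclasts (1.47). Its 3 other probe sets, all measured in both arrays, gave 1.23 to 1.88. Acat1, the thiolase that splits acetoacetyl-CoA and also serves isoleucine breakdown, gave 986 and 1378 (0.92), with 0.65 and 0.99 from its other probe sets. The genes for each step of ketone use thus lay above the shift, and also above 0 as deposited, but only Bdh1 went from near background to a clear signal.

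Promoter sequences of RefSeq (GRCm38.p6) are shown for Bdh1, Acad10 and Bdh2, 3 of the 4 members with the largest differences, and for members holding a match to the motif of NRF1, a regulator of nuclear genes for mitochondria. Acaa2 is the other of the 4. Each runs 5′ to 3′ on the gene's strand from 250 bases before an annotated start to 20 bases after it, and capitals mark the motifs described after the sequences. Bdh1 has 2 annotated starts, and the array does not show which was used.
Bdh1 first start, chr16:31422047-31422316, plus strand: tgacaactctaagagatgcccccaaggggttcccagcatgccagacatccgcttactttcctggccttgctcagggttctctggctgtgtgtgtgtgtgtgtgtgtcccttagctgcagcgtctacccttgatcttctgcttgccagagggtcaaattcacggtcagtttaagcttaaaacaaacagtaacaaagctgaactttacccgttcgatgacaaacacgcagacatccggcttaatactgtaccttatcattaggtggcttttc
Bdh1 second start, chr16:31428503-31428772, plus strand: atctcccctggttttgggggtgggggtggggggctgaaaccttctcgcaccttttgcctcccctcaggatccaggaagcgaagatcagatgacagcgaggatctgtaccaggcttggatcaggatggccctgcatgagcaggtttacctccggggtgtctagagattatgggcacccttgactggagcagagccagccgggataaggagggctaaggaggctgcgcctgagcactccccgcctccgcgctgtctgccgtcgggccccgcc
Acad10, chr5:121660491-121660760, minus strand: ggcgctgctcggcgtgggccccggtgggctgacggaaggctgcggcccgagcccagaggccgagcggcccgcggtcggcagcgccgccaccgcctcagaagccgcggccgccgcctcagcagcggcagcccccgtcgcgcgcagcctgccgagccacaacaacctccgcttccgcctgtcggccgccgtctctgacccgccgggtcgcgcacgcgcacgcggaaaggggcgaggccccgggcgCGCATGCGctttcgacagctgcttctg
Bdh2, chr3:135280971-135281240, plus strand: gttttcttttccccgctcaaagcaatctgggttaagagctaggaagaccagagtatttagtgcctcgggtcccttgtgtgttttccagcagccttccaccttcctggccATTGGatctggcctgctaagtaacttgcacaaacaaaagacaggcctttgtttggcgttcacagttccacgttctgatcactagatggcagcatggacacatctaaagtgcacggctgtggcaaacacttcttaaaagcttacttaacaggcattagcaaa
Acadm, chr3:153944624-153944893, minus strand: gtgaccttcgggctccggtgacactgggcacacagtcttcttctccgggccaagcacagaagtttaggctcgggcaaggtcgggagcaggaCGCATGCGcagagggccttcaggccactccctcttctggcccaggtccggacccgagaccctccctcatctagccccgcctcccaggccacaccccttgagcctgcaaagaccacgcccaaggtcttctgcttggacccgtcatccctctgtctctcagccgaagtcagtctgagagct
Etfdh, chr3:79628748-79629017, minus strand: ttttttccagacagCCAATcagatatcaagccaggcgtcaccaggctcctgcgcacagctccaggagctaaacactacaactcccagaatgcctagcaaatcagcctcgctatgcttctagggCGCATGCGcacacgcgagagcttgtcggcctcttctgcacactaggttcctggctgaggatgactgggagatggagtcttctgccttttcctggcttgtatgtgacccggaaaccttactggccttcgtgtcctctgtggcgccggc

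In all, 33 promoters of 31 of the 36 members were in the table, each searched on both strands from 250 bases before to 50 after the start. The NRF1 core CGCATGCG was found in 3 of the 33 (Acad10, Etfdh and Acadm; 9.09%) and in 1.87% of all 32851 promoters. In Acad10 it begins 7 bases before the start, in Etfdh 127 and in Acadm 159. The CCAAT box was in 15 (45.5%), Bdh2 and Etfdh among them, against 37.4% of all. The element TNAAGGTCA, bound by estrogen-related receptors, was in none of the members' windows and in 1.28% of all promoters. A direct repeat of AGGTCA with 1 base between, the type bound by PPAR factors, was likewise in none, and in 0.0396% of all. This repeat can overlap the former element, as both hold AGGTCA. A match is a description of letters and no match says only that they are not in this window. The Acad10 window was 77.8% G and C with 44 CpG pairs, whereas the Bdh1 windows held 7 and 12 and the Bdh2 window 5. The median was 14 over the members' promoters and 6 over all.

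For activation of fatty acids, 3 of the 4 listed genes were read, and these did not share a direction. Acsl1, the other one, had no probe set carrying its symbol alone. Acsl5, a long-chain synthetase, gave 1683 and 1233 (-0.016) and Acsl4, which prefers arachidonic acid, 771 and 519 (-0.14, other probe sets -0.14 and 0.56). Acsl3, the synthetase of lipid droplets and the endoplasmic reticulum, gave 138 and 169 (0.73), and another measured probe set 1.02. The 3 genes thus had a median of -0.016 (-0.45 as deposited), and none differed by 2-fold.

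The carnitine shuttle was split. Cpt1a, the outer membrane transferase that is the regulated entry step, gave 849 with M-CSF alone and 346 with RANKL, 2.45-fold lower as deposited and -0.86 relative to the shift. Both of its other measured probe sets were lower, at -1.24 and -1.12. Cpt2, the inner membrane partner that releases the acyl-CoA again, gave 168 and 223 (0.85, other probe set 0.89). Crat, the acetyltransferase that buffers acetyl-CoA with carnitine, gave 256 and 228 (0.27), but its probe sets disagreed, with the others at -2.08 and -0.08, so that no direction is given for it. Cpt1a and Cpt2 therefore lay on opposite sides of the shift in all their measured probe sets, and of 0 as deposited in the probe sets used.

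Inside the mitochondrion, the dehydrogenases of straight chains differed little and evenly. Acadvl (very long chains) gave 545 and 581, Acadl (long) 1019 and 1181, Acadm (medium) 1113 and 1117 and Acads (short) 288 and 337. Their differences ran from 0.44 for Acadm to 0.66 for Acads, all under 2-fold. Each was above 0 without the shift taken off as well, and the median was 0.58, or 0.15 as deposited. No chain length stood apart beyond the probe set SD.

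Their electron acceptors lay above the shift. Etfdh, the oxidoreductase that passes electrons from the flavoprotein to ubiquinone, gave 368 and 697 (1.35), and Etfa, the alpha subunit of the flavoprotein, 936 and 1258 (0.86). Etfb, the beta subunit, gave 948 and 896 (0.35, which is -0.08 as deposited). A second Etfdh probe set was below the floor in both arrays, at 13.5 and 1.62.

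Of the 4 genes for hydration and the second dehydrogenation, 3 lay within the probe set SD of the shift. Hadha and Hadhb, the alpha and beta subunits of the trifunctional protein for long chains, gave 738 and 529 (-0.046) and 1224 and 909 (0.0034). A second Hadhb probe set, measured in both arrays, gave 0.66. Hadh, the 3-hydroxyacyl-CoA dehydrogenase for shorter chains, gave 1639 and 1267 (0.061, other probe sets -0.19 and 0.20). Echs1, the short-chain hydratase, gave 475 and 555 (0.66), beyond that SD. As deposited, Echs1 alone of these 4 genes was above 0.

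Of the thiolases that end each cycle, Hadhb for long chains was given above and lay at the shift. Acaa2, the mitochondrial 3-ketoacyl-CoA thiolase for shorter chains, gave 472 in macrophages and 1092 in osteoclasts, 2.31-fold higher as deposited and 1.64 relative to the shift. Its other probe sets gave 1.74 and 2.06, so that all 3 were at least 2-fold higher on both scales. Over the 17 genes of the straight-chain dehydrogenases, electron transfer, hydration and second dehydrogenation, thiolysis and unsaturated chains, 16 lay above the shift and 11 above 0 on the deposited scale, with medians of 0.64 and 0.20 in that order.

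Enzymes that prepare unsaturated chains followed the same direction relative to the shift. Eci2, a delta isomerase found in mitochondria and peroxisomes, gave 331 and 579 (1.24), and its mitochondrial relative Eci1 269 and 310 (0.64). Decr1, the dienoyl-CoA reductase, gave 472 and 465 (0.41, other probe set 0.07), and Ech1, a dienoyl-CoA isomerase, 771 and 700 (0.29). As deposited both were slightly below 0, at -0.02 and -0.14.

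**Figure D2:**
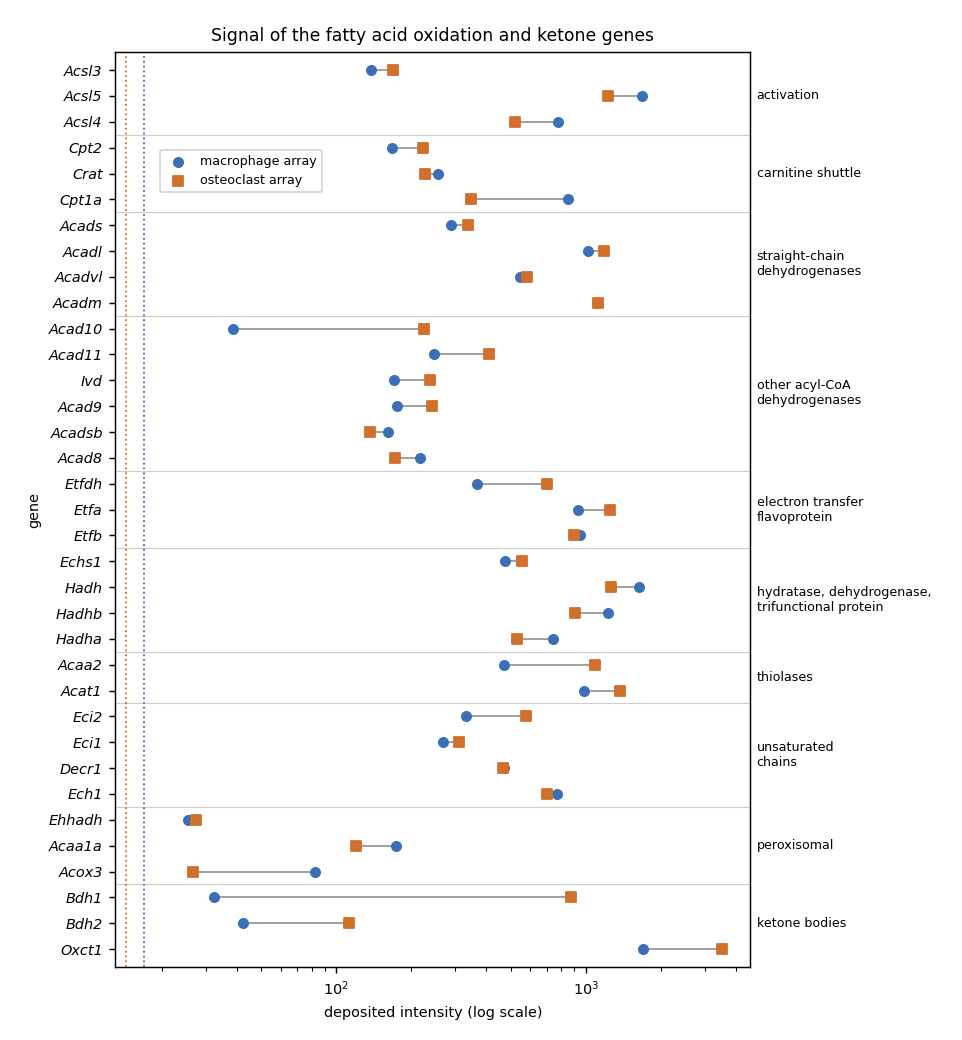
Deposited intensity (horizontal axis, log scale) of the 35 genes in the macrophage array (blue circles) and the osteoclast array (orange squares), grouped by role; dotted lines are the floors of 17.0 and 14.4. Bdh1 spans 32.5 to 872 and Oxct1 1703 to 3502, whereas Cpt1a goes from 849 to 346 and Acox3 from 82.7 to 26.8.

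The other acyl-CoA dehydrogenases included the second largest difference of the list. Acad10, a less studied dehydrogenase, gave 38.5 in macrophages and 225 in osteoclasts, 5.83-fold higher as deposited and 2.98 relative to the shift. Its other probe set lay below both floors, at 12.3 in macrophages, so that the value rests on 1 probe set. Acad11, its close relative, gave 247 and 409 (1.16) and 1.33 from another probe set.

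Acad9 and the dehydrogenases of branched-chain amino acid breakdown were less clear. Ivd, of the leucine pathway, gave 170 and 238 (0.91), but 172 and 79.8 (-0.67) from another probe set. Acad9, a relative of Acadvl that also helps assemble respiratory complex I, gave 175 and 242 (0.90) with another probe set at -0.61. These conflicts are larger than the probe set SD, and no direction is given for either gene. Acadsb (isoleucine) and Acad8 (valine) gave 0.18 and 0.099, and both were below 0 as deposited.

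By the probe sets used, 1 of the 3 peroxisomal members was at least 2-fold lower and the others were under 2-fold. Acox3, an oxidase for branched chains, gave 82.7 and 26.8, 3.09-fold lower as deposited and -1.19 relative to the shift. The osteoclast signal is close to the receptor level of 25.7, and a second probe set lay below both floors. Ehhadh, the bifunctional enzyme, gave 25.4 and 27.4, near background in both arrays. Acaa1a, the peroxisomal thiolase, gave 173 and 120 (-0.10), whereas another probe set gave 1.02, so that no direction is given for it.

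Over all members, 24 further probe sets of 16 genes were measured in both arrays, and 17 of them had the sign of the probe set used. For the members at least 2-fold apart, 6 such probe sets of 3 genes (Acad11, Acaa2 and Oxct1) were available, and 6 of 6 had the same sign.

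**Figure D3:**
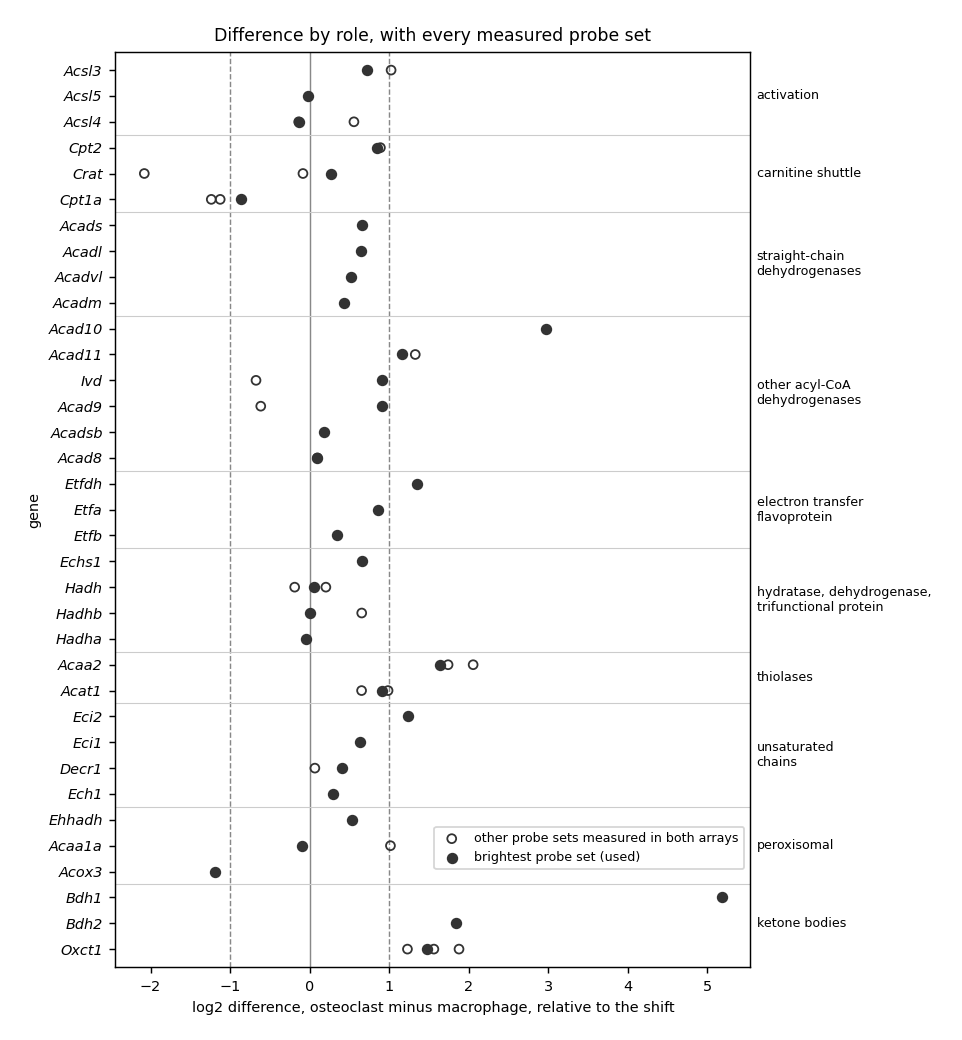
Log2 difference, osteoclast minus macrophage relative to the shift (horizontal axis), for each gene by role; filled points are the probe sets used and open points the 24 others measured in both arrays, with dashed lines at 2-fold. Bdh1 lies at 5.18 and the probe sets of Oxct1 and Acaa2 lie together beyond 1. Those of Crat, Ivd, Acad9, Acaa1a, Acsl4 and Hadh lie on both sides of 0. As deposited every point is 0.43 lower.

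Neighbouring steps were read from lists of genes outside the members. Genes of fatty acid uptake and carnitine supply had a median of -0.17 over 15 measured genes (-0.60 as deposited), and 1 gene passed 2-fold each way. Without the shift taken off, 0 passed upwards and 2 downwards. The gene lower relative to the shift was Cd36, the fatty acid translocase, with 10752 in macrophages and 1900 in osteoclasts (-2.07). Acsl6, the higher one, was below the floor in macrophages at 2.38 and 27.3 in osteoclasts, so that its value of 1.11 is a bound near background. Slc25a20, the carnitine-acylcarnitine carrier between Cpt1a and Cpt2, gave 528 and 356 (-0.14, other probe set -0.51).

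For 13 other peroxisomal genes the median was -0.14 (-0.58 as deposited), and 11 of 13 lay below the shift. Catalase (Cat) was lower, at 5523 and 1772 (-1.21), and Abcd2, a peroxisomal fatty acid transporter, gave 68.8 and then 8.41, below the floor (-1.82 as a bound). Amacr, the racemase of branched chains, was higher, at 69.7 and 296 (2.52).

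For 19 genes of branched-chain amino acid and propionate breakdown the median was 0.24, which turned to -0.19 as deposited. The 3 that were 2-fold higher relative to the shift were Hsd17b10, a mitochondrial dehydrogenase of the isoleucine pathway (848 and 1615, 1.36), Bckdhb, a subunit of the branched-chain ketoacid dehydrogenase (1.29), and Dld, the subunit shared with pyruvate dehydrogenase (1.17). None was 2-fold lower on that scale; as deposited the counts were 0 and 2.

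Further ketone genes had a median of 0.41 over 6 measured genes, which was -0.02 as deposited. Upwards, 2 passed 2-fold relative to the shift and 0 on the deposited scale. Slc16a7, a carrier of monocarboxylates, gave 129 and 249 (1.38), while Slc16a1, the widely used carrier of the same family, gave 630 and 396 (-0.24). Oxct2a, a relative of Oxct1 known from testis, was near background, at 16.1 and 30.9. Hcar2, the receptor for 3-hydroxybutyrate, lay below the floor in both arrays.

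Regulators had a median of 0.33 over 21 measured genes, which turned to -0.10 as deposited, and 3 passed 2-fold upwards and 1 downwards. Without the shift taken off these counts were 2 and 4. Ppargc1b, a coactivator of mitochondrial genes, gave 49.0 and 625 (4.10) and the mitochondrial deacetylase gene Sirt3 63.0 and 133 (1.52). Esrrg, the other higher one, was near background at 14.5 and 31.2. Its relative Esrra gave 205 and 256 (0.75, other probe set 1.10). Among the PPAR receptors, which bind fatty acids, Pparg was lower (244 and 80.6, -1.17), Ppard gave 55.9 and 61.9 (0.58), and Ppara was below the floor in both arrays, as was Ppargc1a.

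**Figure D4:**
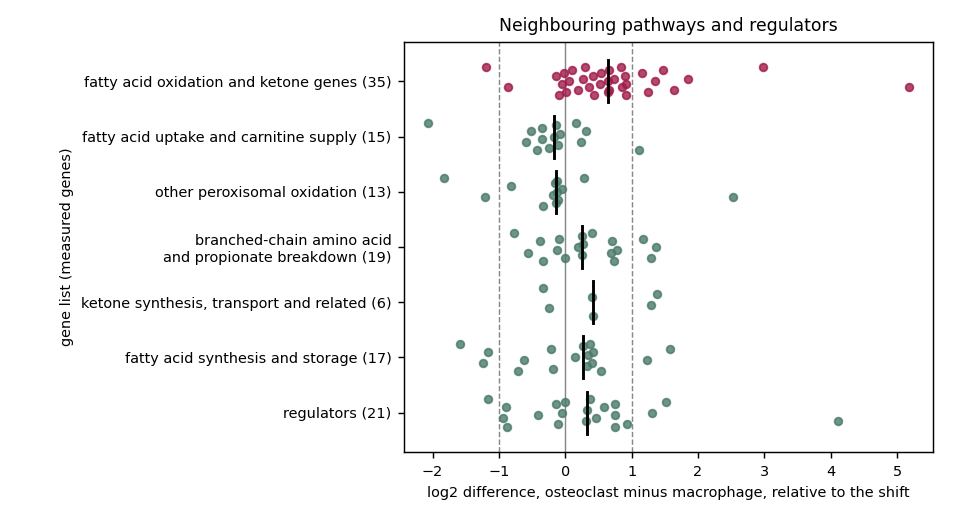
Log2 difference, osteoclast minus macrophage relative to the shift (horizontal axis), for measured genes of the members' list (red) and the other lists (green); black bars are medians, dashed lines mark 2-fold and the number of genes is in brackets. The members' median is 0.64 and those of uptake and of other peroxisomal genes are -0.17 and -0.14; as deposited the medians of the amino acid, ketone, synthesis and regulator lists turn below 0.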

How the data were processed

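RNA of 1 macrophage and 1 osteoclast culture was hybridised to Affymetrix arrays. The authors deposited a linear intensity per probe set; the sources used here do not give how probes were summarised, corrected for background and scaled, and an unequal scaling of the arrays would move every difference alike. Of 45101 probe sets, 64 controls were left out and 34945 carried a single gene symbol in the platform annotation, which can be old; 932 carried several and 9160 none. For 35 members the Entrez identifier gave the same symbol in RefSeq (GRCm38.p6).

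Intensities were put on the log2 scale, values below the floor were raised to it, and the median shift was taken off. With 1 array per group no test was made, the number of arrays limits the precision, and genes were counted at 2-fold. Members and lists, and the NRF1 and CCAAT motifs, were chosen with earlier results of these data known. Named are all members at least 2-fold apart, those near the floor or with conflicting probe sets, the others by role, and genes of the other lists at least 2-fold apart with a few reference genes chosen after their values were seen. The Etfdh promoter was added likewise. Alternatives were the deposited scale, a trimmed mean (2% at each end), quantile normalization, floors at the 30th and 50th percentile or none, the median of probe sets, probe sets without a suffix for shared transcripts and a pseudocount of 16. The code was tested on simulated data. Python 3.11.15, numpy 2.4.6, pandas 2.3.3 and matplotlib 3.10.9 were used.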

Additional observations from a re-analysis of the deposited data

How the results depend on the processing

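Under the 9 alternatives the members' median stayed above 0. On the deposited scale 5 members were at least 2-fold higher in place of 8, and 2 lower in place of 1. With the median of all probe sets, which includes probe sets below the floor, 2 were lower, Crat (-2.08) and Cpt1a; Acox3 turned to 0.29 and Etfdh to -0.64, each drawn by a second probe set under both floors. With a pseudocount of 16, 0 members were 2-fold lower, with Acox3 at -0.85. Bdh1, Acad10, Bdh2, Acaa2 and Oxct1 were at least 2-fold higher under all 9 alternatives, Bdh1 between 4.55 and 5.20. No paired analysis was possible because each group has 1 array. Without replicates, variation between cultures is unknown, and signals near the floor, such as those of Ehhadh, limit what can be read.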

Other observations

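Genes of fatty acid synthesis and storage went both ways. Over 17 measured genes the median was 0.27 relative to the shift, which turned to -0.16 as deposited, and 2 genes passed 2-fold upwards and 3 downwards, against 1 and 5 on the deposited scale. The stearoyl-CoA desaturase genes Scd2 (508 in macrophages and 1128 in osteoclasts, 1.58) and Scd1 (69.3 and 120, 1.23) were higher. Other measured probe sets gave 1.53 and 1.64 for Scd2 but 0.54, under 2-fold, for Scd1. Plin2, which encodes the coat protein of lipid droplets, was lower, at 7466 and 1842 (-1.59). The desaturase genes of polyunsaturated fatty acids, Fads1 (810 and 255, -1.23) and Fads2 (102 and 34.0, -1.16), were lower as well. Another measured probe set gave -0.49, under 2-fold, for Fads1 and -1.40 for Fads2. Fasn, the fatty acid synthase, and Acly, which supplies its acetyl-CoA, gave 0.15 and 0.27, which is below 0 as deposited.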
